A study of Mus musculus with 5 samples.

Results

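Leptomeningeal fibroblasts are the matrix-producing cells of the pia and arachnoid, and related fibroblasts lie along the larger vessels that enter the brain. They lay down fibrillar collagen and small leucine-rich proteoglycans, carry transporters for organic anions, sulfate and GABA, and are a known source of retinoic acid. In a dissected hippocampus they are present only where pia, fissures and vessels stay on the tissue. The 10 genes described here are *Dcn*, *Lum*, *Ogn*, *Col1a1*, *Col1a2*, *Col3a1*, *Slc6a13*, *Slc13a4*, *Slc22a6* and *Aldh1a2*. They were chosen by name as meningeal and perivascular fibroblast genes, with earlier results of these data known. All 10 were found among the 23361 gene symbols measured.

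RNA-seq was performed on the hippocampus of male mice aged 3 months. Both groups carried the floxed *Hdac1* allele (*Hdac1* f/f). The 2 control mice had no Cre, and the 3 *Hdac1* cKO mice also carried *Nestin-Cre*, which deletes *Hdac1* in neurons and astrocytes of the brain. HDAC1 is a class I histone deacetylase, and the study found its protein still detectable in microglia of the cKO. Whether Cre acted in fibroblasts was not measured here. The tissue is bulk, so fewer fibroblasts and less RNA per fibroblast cannot be told apart in any value below.

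Expression is given in FPKM, in which the fragments of a gene are divided by the length of its transcript and by the depth of its library, so that levels of different genes can be compared. Gene positions below are in mm9. The estimated depth was 5120000 to 6750000 fragments per library. *Hdac1* itself gave 8.95 and 13.1 FPKM in control 1 and control 2, and 1.95, 3.12 and 3.37 FPKM in cKO 1, cKO 2 and cKO 3 (limma log2 fold change −1.66, adjusted p = 0.219). With the library sets described next as a block it was −1.74 (limma adjusted p = 0.00389), and with the replicate number as a block −1.77 (adjusted p = 0.0115). The libraries form sets that cross the genotypes, seen as shared steps in low values. Control 1 and cKO 1 make up the first set, and control 2, cKO 2 and cKO 3 the second. For a pair of libraries of 1 set, 24.55% to 28.39% of low genes shared their most common ratio, against 3.71% to 4.64% for a pair from both sets. The cause of the sets is not known, and values within each set are given for the genes they bear on.

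The label of the gene group was checked against 30 other fibroblast genes. Of these, 24 averaged 1 FPKM or more, as did 12740 of all 23361 genes. Among the 24 were *Pdgfra*, a growth factor receptor that oligodendrocyte precursors also carry, and *Islr*. The transcription factor genes *Foxd1*, *Twist1* and *Tbx18*, which mark meningeal or vascular mesenchyme, had means of 0.284, 0.879 and 0.348 FPKM. *Foxc1* and *Zic1*, transcription factor genes of the same list, had means of 1.19 and 2.17 FPKM. No gene of this list was at 0 in any library.

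Sequences upstream of the start sites are shown for *Ogn*, *Col3a1* and *Slc13a4*, the 3 genes in which every cKO library was above both controls, and for *Col1a2*, the partner chain of type I collagen. They come from RefSeq (GRCm38.p6), run from 250 bases before the start site to 50 bases after it, and are written on the gene's own strand. Capitals mark 3 motifs searched on both strands, which are the GC box, spelled GGGCGG, the box spelled CCAAT, and the TATA box, spelled TATAAA. *Ogn* lies at chr13:49607765-49608064 (plus strand), *Col1a2* at chr6:4505368-4505667 (plus), *Col3a1* at chr1:45311288-45311587 (plus) and *Slc13a4* at chr6:35308077-35308376 (minus).
Ogn promoter: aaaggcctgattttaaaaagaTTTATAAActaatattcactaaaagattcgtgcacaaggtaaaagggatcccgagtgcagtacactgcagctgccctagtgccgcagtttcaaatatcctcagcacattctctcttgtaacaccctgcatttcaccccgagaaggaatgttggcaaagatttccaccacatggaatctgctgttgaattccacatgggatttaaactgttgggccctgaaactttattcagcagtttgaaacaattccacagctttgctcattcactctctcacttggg
Col1a2 promoter: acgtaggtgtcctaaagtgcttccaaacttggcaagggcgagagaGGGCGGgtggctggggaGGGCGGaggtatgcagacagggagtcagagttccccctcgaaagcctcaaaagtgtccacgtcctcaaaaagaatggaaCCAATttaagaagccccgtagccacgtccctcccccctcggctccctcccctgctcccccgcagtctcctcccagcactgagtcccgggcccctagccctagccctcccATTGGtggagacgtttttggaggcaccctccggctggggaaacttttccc
Col3a1 promoter: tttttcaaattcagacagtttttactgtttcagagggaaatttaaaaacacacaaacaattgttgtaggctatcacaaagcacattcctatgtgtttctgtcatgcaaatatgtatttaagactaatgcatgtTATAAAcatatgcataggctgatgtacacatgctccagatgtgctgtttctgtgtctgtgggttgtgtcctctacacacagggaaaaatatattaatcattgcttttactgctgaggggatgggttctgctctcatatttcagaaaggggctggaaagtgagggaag
Slc13a4 promoter: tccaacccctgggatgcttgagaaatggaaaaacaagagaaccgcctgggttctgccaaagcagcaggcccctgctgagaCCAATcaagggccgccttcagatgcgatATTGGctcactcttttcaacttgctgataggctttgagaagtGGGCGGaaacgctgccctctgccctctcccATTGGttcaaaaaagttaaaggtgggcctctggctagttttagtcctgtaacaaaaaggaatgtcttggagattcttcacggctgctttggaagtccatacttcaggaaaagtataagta

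The promoters differ in base composition. G and C made up 42.3% of the *Ogn* window, 37.7% of *Col3a1*, 48.7% of *Slc13a4* and 61.0% of *Col1a2*, against a median of 52.7% over all 32851 RefSeq windows of this length. The GC box is of interest because the study reported guanine-rich motifs in promoters of many genes that were lower in aged cKO mice. The study searched a wider window for transcription factor binding motifs, not for these exact letters. The mice here were young, and most of the genes shown were picked for higher values in cKO. A link to that finding was not tested. The GC box was found 2 times in *Col1a2* and 1 time in *Slc13a4*, and in neither *Ogn* nor *Col3a1*. Over the 7 genes with a RefSeq window, 3 held a GC box in a window of theirs (*Slc6a13* is the other), against 35.7% of all windows. The TATA box letters were found in *Ogn* (2 matches, which overlap on opposite strands) and *Col3a1* (1 match), against 13.6% of all windows. The CCAAT letters were found in 5 of the 7 genes (37.4% of all windows), with 2 matches in *Col1a2* and 3 in *Slc13a4*. These counts are by gene and the shares by window, and *Slc6a13* had 3 windows, which gives it more chances of a match. A match is a description of these letters only. *Dcn*, *Lum* and *Col1a1* had no entry.

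The study took a gene as changed where the fold reached 1.5 and P was under 0.05, without saying whether P was adjusted. This rule was applied here with the unadjusted limma p. The fold was taken on the log2(FPKM + 1) scale, on which a gene well under 1 FPKM can hardly reach 1.5. Of the 10 genes 7 averaged 1 FPKM or more and were tested with limma on log2(FPKM + 1). None of the 7 was called, against 0.659% of the 12740 genes tested, and none passed an adjusted p of 0.05. At an unadjusted p under 0.05 alone there was 1, *Ogn*, against 4.36% of all genes. All 7 had a log2 fold change above 0 in cKO, from 0.03 for *Lum* to 0.41 for *Slc13a4*, with a median of 0.33, where 53.7% of all genes were above 0 and their median was 0.01. The 7 are not independent, since they come from the same 5 libraries and were chosen as genes of 1 cell type. Which cells carried these transcripts was not measured. The list was also chosen with earlier results of these data known. Every cKO library was above both controls in 2 of these 7 genes, against 11.0% of all genes tested, and also in *Col3a1*, which was too low to be tested.

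**Figure D1:**
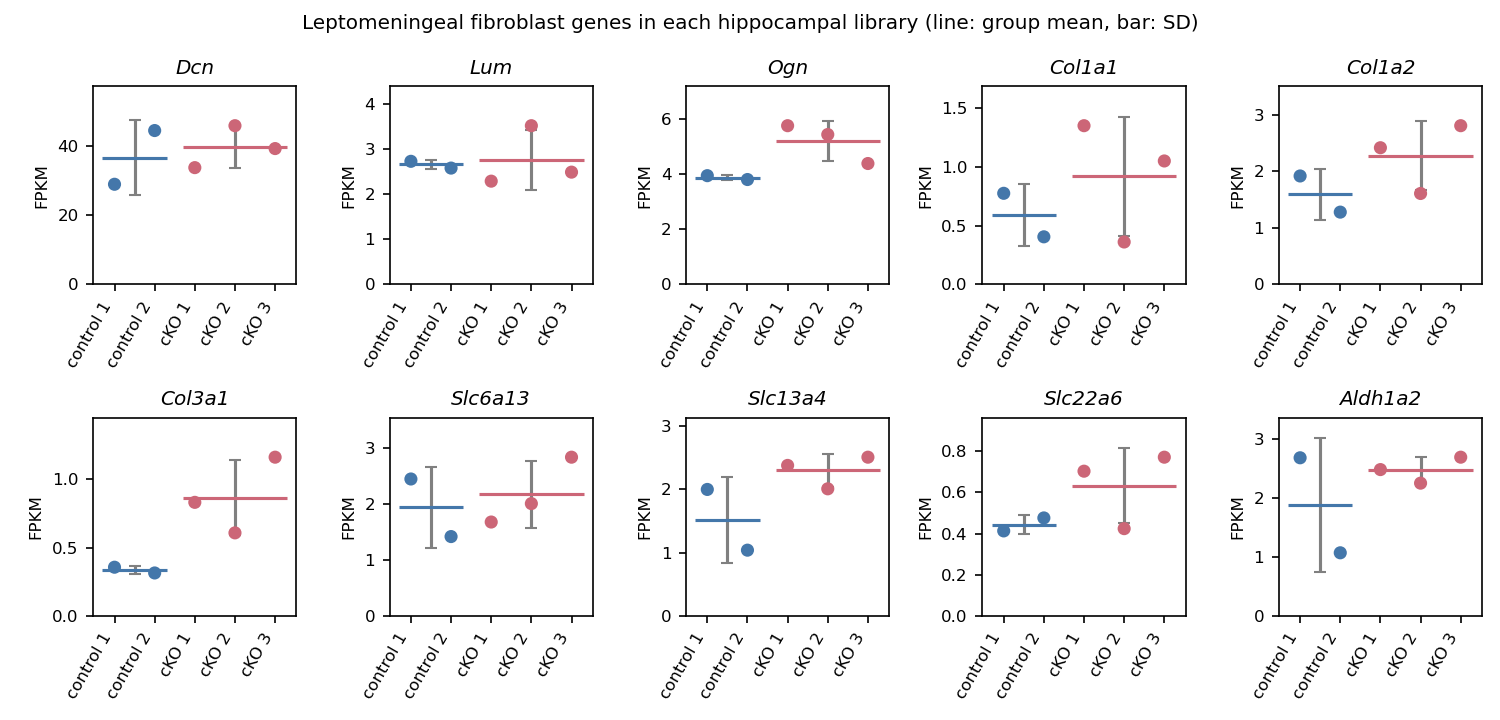
FPKM of each of the 10 genes in the 5 libraries (blue, control; red, *Hdac1* cKO), with the group mean as a line and the SD as a bar. In *Ogn*, *Col3a1* and *Slc13a4* every cKO point lies above both control points, and in the other 7 genes the groups overlap.

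The proteoglycans were the most abundant role. *Dcn* encodes decorin, which binds collagen fibrils and the growth factor TGF-β. The gene spans 96942245 to 96980777 of chromosome 10 (mm9, plus strand). It measured 28.9 and 44.4 FPKM in control 1 and control 2, and 33.7, 45.8 and 39.2 FPKM in cKO 1, cKO 2 and cKO 3. The controls span nearly the whole range, and all cKO values but the highest lie between them. The means were 36.6 ± 10.9 FPKM (SD, n = 2) and 39.6 ± 6.05 FPKM (SD, n = 3), a log2 difference of 0.13 (95% interval −0.31 to 0.57, limma adjusted p = 0.974). Without control 1 the value turned to −0.17.

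*Dcn* varied with the set of libraries. Both libraries of the first set were below all 3 of the second. In a limma fit that also held genotype, the second set was 0.44 above the first on the log2 scale, which did not pass correction (adjusted p = 0.0582). The cKO library was 0.22 above its control within the first set, and within the other the cKO libraries were 0.06 below theirs on average (a difference of −0.06). *Dcn* alone made up 62.6% to 78.2% of the summed FPKM of the 10 genes, so a sum over the list mainly reads *Dcn*.

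*Lum* encodes lumican, which controls the width and spacing of collagen fibrils, and lies 47.4 kb after *Dcn* on the same strand of chromosome 10 (97028135 to 97035337). FPKM of 2.73 and 2.58 were found in control 1 and control 2, beside 2.29, 3.52 and 2.49 in cKO 1, cKO 2 and cKO 3. A single cKO library, replicate 2, was above both controls, and the other two were below both. Its log2 fold change was 0.03 (95% interval −0.37 to 0.42, limma adjusted p = 0.989). The direction was not stable, at −0.02 when every library was rescaled to 1 total, and at −0.18 within the first set and 0.15 within the other. The FPKM ratio of *Dcn* to *Lum* was 10.6 in control 1, 17.2 in control 2, 14.7 in cKO 1, 13.0 in cKO 2 and 15.8 in cKO 3, so these neighbouring genes were far apart in level in every library.

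*Ogn* encodes osteoglycin (mimecan), a proteoglycan of the same family, on the plus strand of chromosome 13 (49703440 to 49719869), where it overlaps *Cenpp* without shared exons. It reached 3.94 FPKM in control 1 and 3.80 in control 2, next to 5.75 in cKO 1, 5.43 in cKO 2 and 4.38 in cKO 3. The controls lay close together, at 3.87 ± 0.101 FPKM (SD, n = 2), and the lowest cKO library was still above both. The cKO mean was 5.19 ± 0.718 FPKM (SD, n = 3), which is 1.34 times the control mean. In log2 units the genotypes differed by 0.34 (SE 0.14, 95% interval 0.01 to 0.67, limma unadjusted p = 0.0447), which did not pass correction (adjusted p = 0.955). Within the sets it was 0.45 (first) and 0.29 (second). *Ogn* was above 0 under every setting tried, from 0.27 to 0.45, with unadjusted limma p-values of 0.0114 to 0.142 and adjusted ones of 0.358 to 1. The unadjusted p was above 0.05 with either control, cKO 1 or cKO 2 left out, with no filter, with median-ratio size factors and with libraries rescaled to 1 total.

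The fibrillar collagen chains were low in FPKM. Type I collagen is built from α1 chains (*Col1a1*) and α2 chains (*Col1a2*), and type III collagen from α1 chains (*Col3a1*) that join type I fibrils in pliable tissues. *Col1a1* lies on the plus strand of chromosome 11 (94797538 to 94814356). FPKM stood at 0.775 (control 1), 0.405 (control 2), 1.35 (cKO 1), 0.361 (cKO 2) and 1.05 (cKO 3). The highest and the lowest library were both cKO and differed 3.73-fold. These values rest on about 11 to 54 fragments per library, from the estimated depth and a transcript of 5930 nt. In a fit with no filter on FPKM its log2 fold change was 0.25 (95% interval −0.34 to 0.83, limma adjusted p = 0.956). The exons share 109 of 6563 nt with *Gm17329* on the opposite strand.

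*Col1a2* lies on the plus strand of chromosome 6 (4454814 to 4491543). From control 1 to cKO 3 the values were 1.92 and 1.28 FPKM without Cre, then 2.42, 1.61 and 2.81 FPKM with it. The cKO replicates 1 and 3 were above both controls, and replicate 2 lay between them. The fitted log2 change came to 0.33 (SE 0.20, 95% interval −0.14 to 0.80, limma adjusted p = 0.955). Without control 1 it was 0.51 and without control 2 it was 0.15. The FPKM ratio of *Col1a1* to *Col1a2* was 0.404 in control 1, 0.317 in control 2, 0.557 in cKO 1, 0.225 in cKO 2 and 0.374 in cKO 3. The α1 transcript was therefore below the α2 transcript in all 5 libraries, and the ratios of the groups overlapped.

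*Col3a1*, on the plus strand of chromosome 1 (45368383 to 45406551), had the widest gap between the groups. It measured 0.356 and 0.314 FPKM in control 1 and control 2, and 0.830, 0.607 and 1.16 FPKM in cKO 1, cKO 2 and cKO 3. The lowest cKO library was well above the higher control, and the cKO mean of 0.865 ± 0.277 FPKM (SD, n = 3) was 2.58 times the control mean of 0.335 ± 0.0298 FPKM (SD, n = 2). All of these levels are under or near 1 FPKM, on about 12 and 13 fragments in the controls and 17 to 41 in the cKO libraries. With no filter the log2 fold change was 0.47 (the pseudocount of 1 pulls it towards 0 in a gene this low, SE 0.14, 95% interval 0.13 to 0.81, limma unadjusted p = 0.0135, adjusted p = 0.953). That is under the fold of 1.5 on this scale, and the call turned with the scale. With no filter and a pseudocount of 0.1, chosen after seeing the data, the log2 fold change was 1.11 (limma unadjusted p = 0.0142, adjusted p = 0.947) and *Col3a1* was called, as were 2.15% of the 17697 genes in that fit. With no filter and libraries rescaled to 1 total it was 0.61 (limma unadjusted p = 0.0163, adjusted p = 0.998) and also called, as were 1.14% of the genes in that fit. It was above 0 in all fits, from 0.36 to 1.11, with adjusted p-values of 0.626 to 0.998, and its unadjusted p was above 0.05 without either control. Within the sets the difference was 0.43 (first) and 0.50 (second).

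The collagen chains shared a part of their pattern across the libraries. All 3 were above their own mean in cKO 1 and cKO 3 and below it in control 2 and cKO 2. cKO 2 was the lowest cKO library for each of them, but it was below both controls for *Col1a1*, between them for *Col1a2* and above both for *Col3a1*. *Dcn* and *Lum* showed the opposite, with cKO 2 as their highest library. The ratio of *Dcn* to *Col1a2* was 34.7 and 28.5 in control 2 and cKO 2, and 13.9 to 15.1 in the other 3 libraries. Decorin and collagen transcripts thus did not keep a fixed proportion between libraries.

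**Figure D2:**
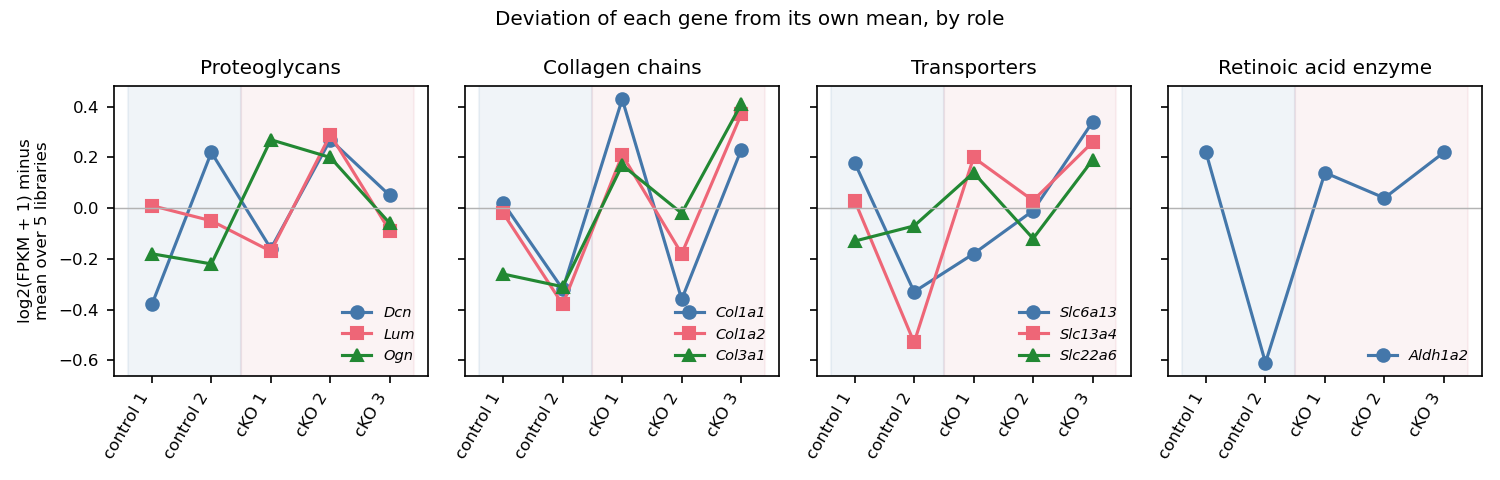
Deviation of each gene from its own mean over the 5 libraries, in log2(FPKM + 1), by role. The collagen chains are low in control 2 and high in cKO 1 and cKO 3, *Dcn* and *Lum* are highest in cKO 2, and *Slc13a4* and *Aldh1a2* are lowest in control 2, at −0.53 and −0.61.

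The transporters mark the barrier side of the meninges. *Slc6a13* encodes GAT2, which takes up GABA and taurine, and lies on the plus strand of chromosome 6 (121250245 to 121287751). FPKM of 2.45 and 1.42 were found in control 1 and control 2, beside 1.68, 2.01 and 2.84 in cKO 1, cKO 2 and cKO 3. The groups overlapped fully except for cKO 3, the highest. Its log2 fold change was 0.12 (95% interval −0.38 to 0.62, limma adjusted p = 0.980). Its direction was not stable, at −0.37 within the first set but 0.49 within the other.

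*Slc13a4* encodes a sodium-coupled sulfate transporter, on the minus strand of chromosome 6 (35217957 to 35258131). It reached 2.0 FPKM in control 1 and 1.04 in control 2, next to 2.38 in cKO 1, 2.01 in cKO 2 and 2.51 in cKO 3. Every cKO library was above both controls, but cKO 2 exceeded control 1 only in the last digit. The means were 1.52 ± 0.681 FPKM (SD, n = 2) and 2.30 ± 0.260 FPKM (SD, n = 3). In log2 units the genotypes differed by 0.41 (SE 0.19, 95% interval −0.04 to 0.86, limma unadjusted p = 0.0669, adjusted p = 0.955). Without control 1 it was 0.69, which passed the study's rule for a change but not correction (limma adjusted p = 1), and without control 2 it was 0.13. Within the sets it was 0.17 (first) and 0.67 (second).

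*Slc22a6* encodes OAT1, an organic anion transporter of kidney and meninges, on the plus strand of chromosome 19 (8692486 to 8702789). FPKM stood at 0.413 (control 1), 0.476 (control 2), 0.703 (cKO 1), 0.424 (cKO 2) and 0.771 (cKO 3). cKO replicates 1 and 3 were above both controls, and replicate 2 was between them. These values rest on about 9 to 20 fragments each. With no filter the log2 fold change was 0.17 (95% interval −0.12 to 0.46, limma adjusted p = 0.953).

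*Aldh1a2* encodes RALDH2, the enzyme that makes retinoic acid from retinal, on the plus strand of chromosome 9 (71063596 to 71144050). From control 1 to cKO 3 the values were 2.68 and 1.07 FPKM without Cre, then 2.48, 2.25 and 2.69 FPKM with it. Control 1 and the 3 cKO libraries lay close together, and control 2 alone was low. The log2 fold change of 0.33 (95% interval −0.21 to 0.87, limma adjusted p = 0.955) became −0.09 without control 2. With control 1 left out instead it was 0.74, past the study's rule but not correction (limma adjusted p = 1). Within the first set the difference was −0.08 and within the other 0.74. The ratio of *Aldh1a2* to *Slc13a4* was 1.34 in control 1, 1.03 in control 2, 1.05 in cKO 1, 1.12 in cKO 2 and 1.07 in cKO 3, so control 2 was low in both genes by a like factor.

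Control 2 and cKO 3 were often at the ends of the range. Control 2 was the lowest library for 6 of the 10 genes, and cKO 3 the highest for 6. Without *Dcn* the remaining 9 genes summed to 17.3 FPKM in control 1, 12.4 in control 2, 19.9 in cKO 1, 18.2 in cKO 2 and 20.7 in cKO 3. The median log2 fold change of 0.33 over the tested genes became 0.13 without control 2 and 0.38 without control 1, and within the sets it was 0.17 and 0.47. No other library lowered that median as far when left out.

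**Figure D3:**
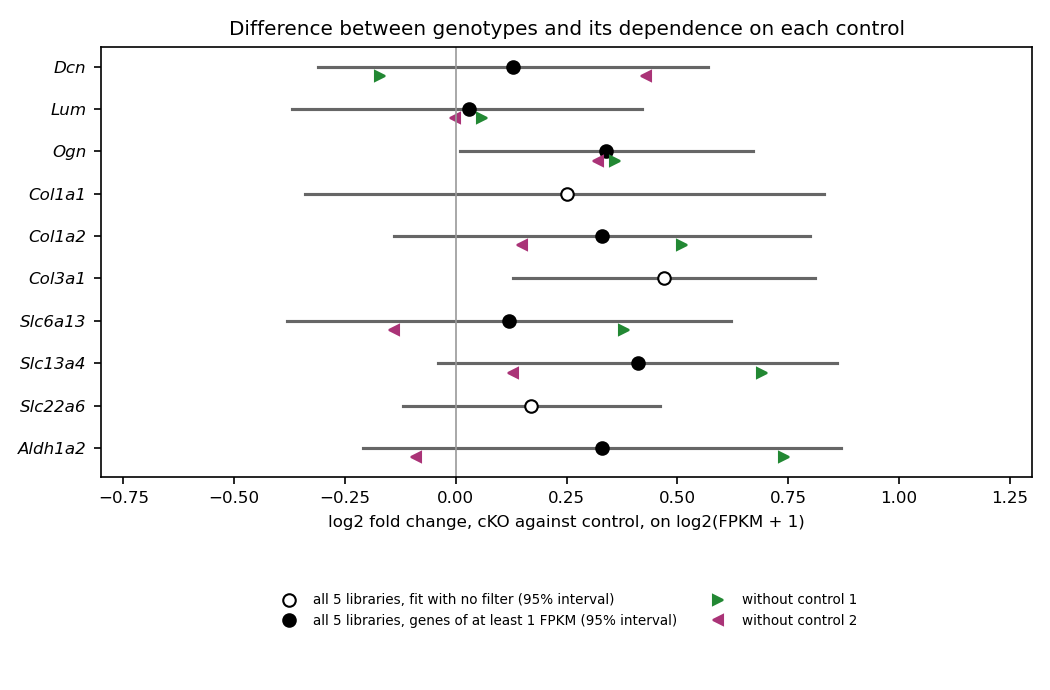
Log2 fold change (cKO against control, on log2(FPKM + 1)) of each gene, with its 95% interval from limma over 5 libraries. Filled points are tested genes, and open points are genes under 1 FPKM from the fit with no filter. For the tested genes only, the values without control 1 and without control 2 are also shown. The values without each control stand far apart for *Dcn*, *Slc6a13*, *Slc13a4* and *Aldh1a2* (0.74 and −0.09) and nearly coincide for *Ogn* (0.36 and 0.32).

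Other cell types that a dissection can carry were measured beside these genes. Choroid plexus epithelium had the widest range of summed markers. Its 10 markers summed to 168 FPKM in control 1, 7.21 in control 2, 76.7 in cKO 1, 606 in cKO 2 and 25.9 in cKO 3, and *Ttr*, the transthyretin gene of that epithelium, went from 1.33 FPKM in control 2 to 589 FPKM in cKO 2. *Kcne2*, *Otx2* and *Folr1* were listed at 0 in at least 1 library. Control 2 thus had the lowest choroid plexus sum and was the lowest library for 6 of the 10 genes. *Ttr* made up most of that sum in every library but control 2. The mean of the 10 markers in log2(FPKM + 1) was also lowest in control 2, at 0.581. Single markers did not all follow, as *Folr1* was at 0.984 FPKM in control 2 and 0 in cKO 3, and *Prlr* at 0.611 and 0.177 FPKM. cKO 2, with the most choroid plexus signal, was the lowest cKO library for all 3 collagen chains, and cKO 3, the highest library for 6 genes, was next to lowest in choroid plexus signal. The part of this tissue in the differences was not tested.

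The summed markers of vessels and blood had narrower ranges. Endothelial markers (10 genes) summed to 95.3 and 95.6 FPKM without Cre and to 78.7, 80.8 and 110 FPKM with it. Mural cell markers (10 genes) summed to 83.6 and 86.1 FPKM against 81.4, 84.6 and 96.1 FPKM. Border macrophage markers (5 genes) summed to 3.62 and 3.51 FPKM against 3.25, 3.55 and 3.92 FPKM. These 3 lists were highest in cKO 3, as were 6 of the 10 fibroblast genes, and their part in that was not tested. Their median log2 fold changes over the tested genes were −0.11, 0.03 and −0.10. Astrocyte markers (8 genes) had a median of 0.20 with 7 of 8 above 0, 5 of 8 higher in every cKO library than in both controls, 1 called higher, *Aqp4* (0.78), and 2 higher at an unadjusted limma p under 0.05, *Aqp4* and *Gfap* (0.43). The shares over all genes were 53.7%, 11.0%, 0.659% and 4.36%. What part this had in the fibroblast genes was not tested. Neuron markers (8 genes) had a median of −0.10 with 0 called and 0 at an unadjusted limma p under 0.05. Red cell markers (5 genes) summed to 104 and 60.9 FPKM without Cre and to 71.1, 97.4 and 57.6 FPKM with it. Within this list the near-identical globin genes *Hba-a1* (0.0487 to 53.5 FPKM) and *Hba-a2* (0.653 to 42.5 FPKM) varied far more than their list's sum. *Hba-a2* was called higher (2.32) beside a value of −2.49 for *Hba-a1*, and how reads were split between them is uncertain.

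Genes that act beside the 10 were taken from lists of related genes. Among the 30 other fibroblast genes 24 were tested, and 1 was called higher and 0 lower. At an unadjusted limma p under 0.05, 6 were higher and 0 lower, the median log2 fold change was 0.18, and 19 of 24 were above 0. Over all genes 0.659% were called, 4.36% passed the unadjusted p in either direction and 53.7% were above 0. The called gene was *Pcolce*, the enhancer of the proteinase that trims procollagen. It measured 1.77 and 0.717 FPKM in control 1 and control 2, and 2.57, 1.72 and 2.91 FPKM in cKO 1, cKO 2 and cKO 3, with a log2 fold change of 0.62 (SE 0.24, limma unadjusted p = 0.0334, adjusted p = 0.955). Its libraries ranked in the same order as those of *Col1a2*, with cKO 3 highest and control 2 lowest, and the groups overlapped. It was no longer called without control 2 (0.28), cKO 1 (0.58) or cKO 3 (0.51), or with the replicate number as a block (0.51). Of the other 5 past the unadjusted p, *Ptgds*, the prostaglandin D synthase gene that oligodendrocytes also express, had 279 and 287 FPKM in control 1 and control 2 and 442, 366 and 392 FPKM in cKO 1, cKO 2 and cKO 3. Its log2 difference of 0.50 (SE 0.11, limma unadjusted p = 0.00190, adjusted p = 0.955) was under the fold of 1.5. The rest were *Igfbp2* (0.47), *Itih5* (0.44), *Mfap4* (0.38) and the sulfate transporter *Slc26a2* (0.35). In all of these but *Igfbp2* every cKO library was above both controls, but they were picked by their p. Over the whole list of 30, tested or not, every cKO library was above both controls in 6 genes and below both in 2. Over the 12740 tested genes the counts were 1401 (11.0%) above and 1199 below. *Foxd1* had its higher values in the controls, 0.549 and 0.307 FPKM, above all of cKO 1, cKO 2 and cKO 3 (0.275, 0.158 and 0.129 FPKM). It was too low to be tested, and it is named for these values.

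Of 22 other collagens 7 were tested and 0 were called, with 0 at an unadjusted limma p under 0.05 and a median log2 fold change of 0.02. The highest by mean FPKM were *Col25a1*, a transmembrane collagen of neurons, and *Col4a1*, of vessel basement membranes. *Col4a1* reached 4.21 FPKM in control 1 and 4.34 in control 2, next to 3.76 in cKO 1, 3.42 in cKO 2 and 4.76 in cKO 3, and its groups overlapped. Of 25 collagen assembly genes 20 were tested and 0 were called, with 0 higher and 2 lower at an unadjusted limma p under 0.05. These 2 were *P4ha2*, a proline hydroxylase subunit (−0.43), and *Sparc*, a collagen-binding glycoprotein that astrocytes also make (−0.30). The median of this list was 0.05. *Ppib*, a prolyl isomerase that acts on collagen and many other proteins, gave 65.9 and 68.4 FPKM in control 1 and control 2, and 61.4, 70.6 and 78.6 FPKM in cKO 1, cKO 2 and cKO 3.

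Among 24 genes of collagen receptors, TGF-β signalling and matrix turnover 17 were tested, with 0 called higher and 1 lower, 1 higher and 2 lower at an unadjusted limma p under 0.05, and a median of 0.07. The called gene was *Ctgf*, a matrix protein that TGF-β induces. It reached 3.04 FPKM in control 1 and 5.30 in control 2, next to 1.02 in cKO 1, 3.17 in cKO 2 and 0.996 in cKO 3, with a log2 fold change of −0.98 (SE 0.34, limma unadjusted p = 0.0200, adjusted p = 0.955). cKO 2 lay between the controls, so the groups overlapped. It was no longer called without control 2 (−0.66) or without cKO 3 (−0.80). *Mmp14*, a membrane metalloproteinase that cleaves collagen, was higher at an unadjusted limma p of 0.00492 (log2 fold change 0.52) without reaching the fold of 1.5. *Timp2*, an inhibitor of such proteinases, was lower at an unadjusted limma p of 0.0251 (−0.30), with every cKO library below both controls, and also stayed under that fold.

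Of the 17 genes of retinoic acid handling 14 were tested, with a median of −0.03, and 7 were above 0 and 7 below. *Crabp2*, which carries retinoic acid to its receptor, was above 0 at an unadjusted limma p of 0.0323 (log2 fold change 0.42) without reaching the fold of 1.5, and it is named for this value.

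Of 14 transporters related to the 3 above 10 were tested, 0 were called, and 0 had an unadjusted limma p under 0.05, with a median of −0.03. The GABA transporter gene *Slc6a11*, of astrocytes, was far above *Slc6a13* in every library. It measured 35.3 and 33.9 FPKM in control 1 and control 2, and 33.3, 28.4 and 27.8 FPKM in cKO 1, cKO 2 and cKO 3.

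**Figure D4:**
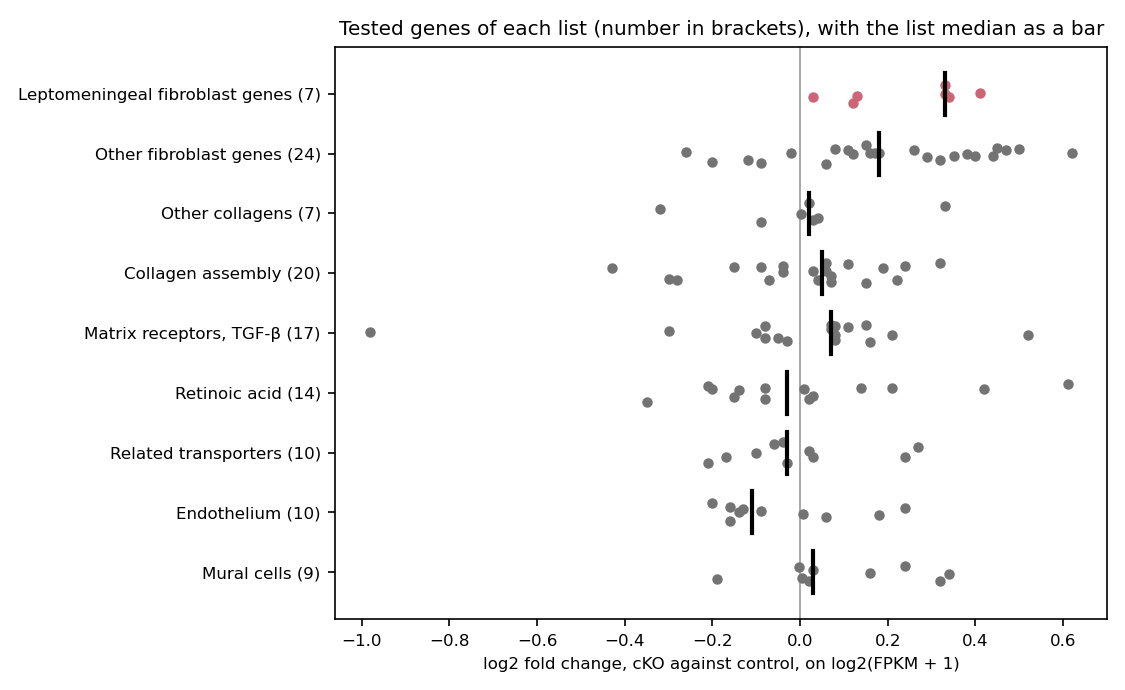
Log2 fold change (cKO against control, on log2(FPKM + 1)) of every tested gene in the fibroblast group, 6 related lists and the endothelial and mural markers, with the list median as a bar. The 7 tested fibroblast genes lie between 0.03 and 0.41 with a median of 0.33, against 0.18 for the other fibroblast genes, −0.11 for endothelium and 0.03 for mural cells.

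*Igf2*, a growth factor that leptomeninges and choroid plexus make, passed the study's rule. It gave 7.53 and 4.41 FPKM in control 1 and control 2, and 12.8, 9.40 and 15.2 FPKM in cKO 1, cKO 2 and cKO 3, with every cKO library above both controls. Its libraries ranked in the same order as those of *Col3a1*. The fitted log2 change came to 0.96 (SE 0.23, limma unadjusted p = 0.00327, adjusted p = 0.955), and within the sets it was 0.69 (first) and 1.26 (second).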

How the data were processed

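Hippocampal total RNA was sequenced on an Illumina HiSeq after TruSeq Total RNA library preparation. The authors aligned reads to mm9 with TopHat and deposited FPKM from Cufflinks 2.0.0 (also in the submitters' processing notes), 1 value per gene symbol. How the counting treated strand and reads matching several genes is not given in the sources used here. FPKM are not counts, so no count model was used.

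Groups and replicate numbers came from the sample titles. log2(FPKM + 1) of the deposited values was fitted on genotype alone, in genes averaging 1 FPKM or more, by limma 3.58.1 in R 4.3.3 (lmFit, eBayes with trend), with two-sided p-values and Benjamini-Hochberg adjustment over all 12740 tested genes. The fit was tested on simulated data. The 10 genes and all lists were chosen with earlier results of these data known. Related genes were named where called in a list, or else as the 2 with the highest mean, together with *Hdac1*, *Igf2*, the nearest coding neighbours and the 5 genes of most similar profile. Genes named beyond this rule were chosen after their values were seen. Some genes that the rule would name are not reported here.

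Positions are from GENCODE vM1 (NCBIM37, the assembly of mm9), 1-based. No gene of the 10 had a near-identical coding transcript (BLAST 2.17.0, at least 95% identity over at least 200 nt). Library sets were found from genes with a mean under 0.3 FPKM, as pairs of libraries with over 10% of ratios inside a window of 0.05 log2 units. Depth was read from the most common value of FPKM times length in genes with a single transcript of at least 1 kb, which rests on 30 to 77 genes per library and is approximate.

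Alternatives were a pseudocount of 0.1, no filter or a minimum mean of 5 FPKM, scaling by a common total, by quantiles or by median-ratio size factors, no variance trend, the replicate number or the library set as a block, values within each set, and each library left out in turn. Fits with no filter together with each of these were added after seeing the data.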

Additional observations from a re-analysis of the deposited data

How the results depend on the processing

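Among the 7 tested genes the count past the rule was 0 under every alternative but the left-out libraries, where it ranged from 0 to 2, with *Slc13a4* and *Aldh1a2* called without control 1. With no filter and each other choice in turn, fits chosen after seeing the data that hold all 10 genes, the count was 1 (*Col3a1*) with a pseudocount of 0.1 and 1 (*Col3a1*) with a common total, 0 with the other scalings, no trend or either block, and again 0 to 2 with a library left out. With a lone control left, the fit assumes that it varies like the other libraries. The median log2 fold change of 0.33 became 0.13 with a minimum mean of 5 FPKM, which leaves *Dcn* only, 0.21 with the replicate block, 0.17 and 0.47 within the sets, and 0.13 to 0.38 with a library left out. Directions turned for *Lum* (−0.02 after rescaling to a common total, −0.11 to 0.12 with a library left out), *Slc6a13* (−0.03 with the replicate block, −0.14 to 0.38), *Dcn* (−0.17 to 0.43) and *Aldh1a2* (−0.09 to 0.74). The cause was not tested. The related lists had 3 genes past the rule, 6 with the pseudocount of 0.1, 1 with the minimum of 5 FPKM, and 1 to 6 with a library left out. Over all genes 84 passed, 142 with the pseudocount of 0.1, 43 with the minimum of 5 FPKM (fewer genes tested), 133 with the replicate block, and 92 to 231 with a library left out. Of the genes past the rule 60.7% were higher in cKO, 41.1% after rescaling, and 46.8% and 45.9% without control 2 and cKO 1. Same-numbered libraries deviated together from their group means (r = 0.402 and 0.269 across 12740 genes, which are not independent). Control 2 and cKO 3, of unlike number but of the same library set, did so too (r = 0.151). The deviations of the 2 controls mirror each other, which ties these values. Each same-numbered pair also shares a library set and replicate 3 has no control, so the numbers are not taken as pairs. Genes near 1 FPKM rest on 10.2 to 13.5 estimated fragments per library for a transcript of 2 kb.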

Other observations

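The genes beside the 10 on the chromosomes gave further values. *Lum* is followed after 34.5 kb by *Kera*, the keratocan gene, which was listed at 0 in all 5 libraries. *Ogn* is preceded after 15.5 kb by *Omd*, another proteoglycan of its family, at 5.72 and 7.10 FPKM without Cre and 4.79, 6.41 and 6.26 FPKM with it. Unlike in *Ogn*, the groups of *Omd* overlapped, and cKO 1 was its lowest library and the highest of *Ogn*. *Col3a1* is followed after 24.6 kb by *Col5a2*, a chain of type V collagen, at 0.449 and 0.395 FPKM without Cre and 0.657, 0.875 and 0.416 FPKM with it, where control 1 exceeded cKO 3. *Slc6a13* is followed after 5.3 kb by *Slc6a12*, at 0.35 FPKM in control 1, listed at 0 in control 2 and at 0.343, 0.0758 and 0.124 FPKM in cKO 1, cKO 2 and cKO 3. *Slc22a6* is preceded after 6.2 kb by *Slc22a8*, which encodes the organic anion transporter OAT3, at 1.79 and 1.62 FPKM without Cre and 1.45, 1.29 and 2.75 FPKM with it. *Slc13a4* is followed after 4.6 kb by *Fam180a*, listed at 0 in control 1, at 0.206 FPKM in control 2 and at 0.498, 1.20 and 0.543 FPKM in cKO 1, cKO 2 and cKO 3, so that every cKO library was above both controls at a low level.

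The mean profile of the 7 tested genes, as deviations in log2(FPKM + 1), was −0.02 in control 1, −0.27 in control 2, 0.04 in cKO 1, 0.09 in cKO 2 and 0.16 in cKO 3. Among 9190 other genes averaging 5 FPKM or more, the 5 with the smallest root mean square distance to it over the 5 libraries were *Hist1h1a* (0.0175), *Scrg1* (0.0223), *Pvrl3* (0.0271), *Tmed1* (0.0282) and *Snrnp35* (0.0303). None of the 5 is in the gene lists used here, and with 5 libraries the likeness is a description only.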
